A study of Arabidopsis thaliana with 11 samples.

Results

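The NAC genes are a plant family of transcription factors, and 47 of its Arabidopsis members were followed here in guard-cell-enriched samples from plants kept with and without salt. The members were listed by locus identifier with earlier results of these data known, and all 47 are among the 28718 loci of the authors' deposited table. By their known roles they were grouped as 8 stress genes, 7 senescence genes, 12 membrane-bound factors, 4 wall and xylem genes and 16 others.

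Guard cells are the paired cells of the leaf surface whose swelling sets the width of a stomatal pore. All plants were Arabidopsis thaliana Columbia-0 in soil, 4 to 5 weeks old at the start and labelled 6 to 7 weeks old. Pots stood in solution for 2 h on each treatment day. In the 3x salt regime the solution was 75 mM NaCl for the first round (days 1 and 2), 150 mM for the next (days 7 and 8) and 200 mM for the last (days 13 and 14). In the 1x salt regime only that last round, at 200 mM, was given, and no-salt pots were watered with tap water. Every group was harvested on day 15 after 4 h of light, and each sample was hybridised to its own 1-colour Agilent array, giving 4 no-salt, 3 1x salt and 4 3x salt arrays. The regimes differ in total dose, in duration and in whether earlier rounds came first, and these cannot be told apart.

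NAC proteins bind DNA through a conserved N-terminal domain, from which the family takes its name, and act through a variable C-terminal region. The relatives of ANAC019, RD26 and ATAF1 respond to abscisic acid (ABA), jasmonate, drought and salt, and ANAC019, ANAC055 and RD26 are known to act downstream of MYC2 in bacterial reopening of stomata. NAP and ORE1 promote leaf senescence, whereas JUB1 and VNI2 delay it. A further group carries a C-terminal membrane anchor and is cut free under stress, so that its activity can change with no change in its mRNA. NST1 and SND1 switch on secondary wall synthesis in fibres. No sequences of the members were at hand, and none is printed.

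Levels are given as log2 of the processed spot signal relative to the 75th percentile of the same array, so 0 is the level of that percentile. A level compares arrays for 1 gene and says nothing of 1 gene against another. Between 66.24% and 80.25% of spots per array were well above background, the highest share being on 1x salt array 3, which also had 442 outlier spots against 9 to 38 elsewhere. All 11 guard cell markers, among them FAMA, KAT1 and SLAC1, were well above background on all 11 arrays, and so were the 10 vascular and 5 mesophyll markers. Across all genes no-salt array 1 stood apart from no-salt arrays 2 to 4 (SD of the log2 differences between 2 arrays 0.423 to 0.450 against 0.299 to 0.329), and 1x salt array 1 from arrays 2 and 3 (0.609 and 0.686 against 0.457). The 3x salt arrays formed the pairs 1 with 2 and 3 with 4, at 0.333 and 0.330 within and 0.513 to 0.560 across them. In enriched tissue, fewer cells of a type and less RNA per cell cannot be told apart. Whether the samples of 1 group are separate plant preparations is not in the labels, so each p-value speaks of the spread among these samples alone, and that spread may be technical.

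Of the 47 members, 42 were well above background on at least 3 arrays and entered the test among 23442 genes. The master wall regulators NST1 (AT2G46770) and SND1 (AT1G32770) were not well above background on any array. The same held for ANAC085, a factor of DNA damage arrest, and ANAC071, a factor of wound healing and graft union. ANAC044 (AT3G01600), a relative of ANAC085, had no matched probe, and the authors' deposited table lists it at log2 values of 4.49 to 5.61. Among the tested members, ANAC060 was above background on 6 arrays, ANAC025 on 3 and SND3 on 10, and the others on all 11. The members varied more between arrays than most genes did, with a median SE of 0.20 for the difference of 1x salt from no salt against 0.13 over all genes tested.

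In 1x salt most of the 42 tested members had lower mRNA. Relative to no salt, 18 of the 42 tested members fell and 1 rose at an adjusted p below 0.05, while 7.7% of all genes tested fell and 9.24% rose. Members lower in 1x salt, whatever their p, made up 76.2% of the 42 and 44.5% of all genes. The median difference was -0.34 on the log2 scale for the 42 members and 0.04 for all genes. The fall was not shared by 22 tested NAC genes outside the 47, of which 7 rose and 0 fell in 1x salt by limma (10 and 3 at an unadjusted p below 0.05), with a median of 0.22. These came from 34 genes listed with earlier results known, vessel regulators such as VND6 among them. They do not stand for the rest of the family. In 3x salt the members were split, with 10 members higher and 10 lower than in no salt, where 27.9% of all genes rose and 23.6% fell. These shares of the members lie near those of all genes, and the median difference was -0.07 against 0.04. Of the 39 members above background on all arrays, 9 rose and 10 fell in 3x salt, where 29.6% and 25.2% of all such genes did. Directly compared, 19 of 42 members were higher in 3x than in 1x salt and 2 were lower, against 19.8% and 19% of all genes, with medians of 0.43 and 0.01. The comparisons share arrays, so they are not independent of each other.

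**Figure D1:**
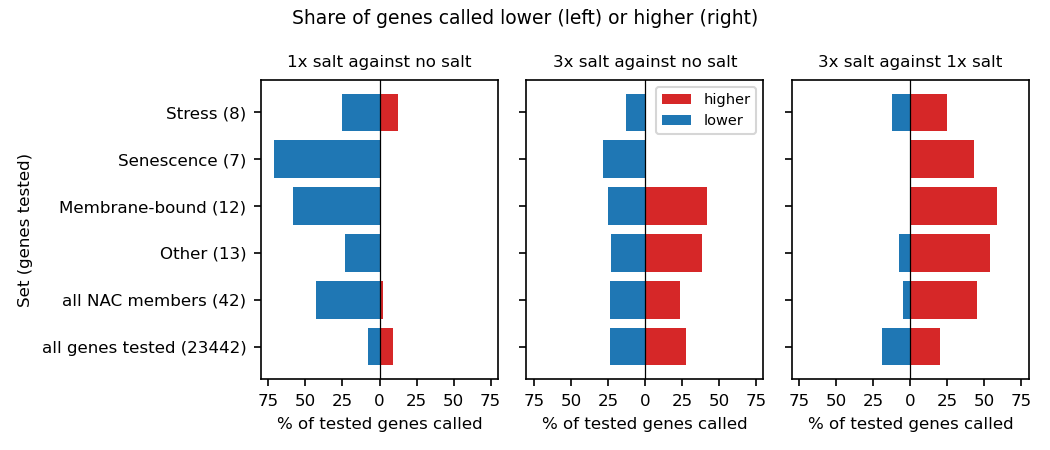
Share of tested genes called lower (blue, to the left) or higher (red, to the right) by limma at an adjusted p below 0.05, for NAC classes, all 42 tested members and all 23442 genes; numbers of genes tested are in brackets, and the 2 tested wall genes are left out. The members' bar to the left in 1x salt against no salt is longer than that of all genes, while both bars are near those of all genes in 3x salt against no salt.

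In 1x salt against no salt, 5 of 7 senescence genes fell (median -0.98), as did 7 of 12 membrane-bound genes (median -0.37), 2 of 8 stress genes (median -0.52), 1 of 2 tested wall genes and 3 of 13 tested others (median -0.14). Of all genes tested, 7.7% fell in 1x salt. In 3x salt against no salt, 5 membrane-bound genes rose and 3 fell, 5 others rose and 3 fell, 2 senescence genes, 1 stress gene and 1 wall gene fell, and no member of those last classes rose, at an adjusted or an unadjusted p below 0.05 in limma. In 3x against 1x salt, 7 membrane-bound genes, 7 others, 3 senescence genes and 2 stress genes were higher, and 1 stress gene and 1 other were lower. Of all genes, 19.8% were called higher and 19% lower. Whatever their p, 35 of the 42 members (83.3%) had a higher mean in 3x than in 1x salt, against 50.8% of all genes. These were all 12 membrane-bound genes, 6 of 7 senescence genes, 6 of 8 stress genes, 10 of 13 others and 1 of 2 wall genes. The median was 0.43 for the membrane-bound genes, 0.59 for the senescence genes and 0.44 for the others. Taken as 15 stress and senescence genes and 14 membrane-bound and wall genes, 7 and 8 respectively fell in 1x salt, with medians of -0.62 and -0.37. In 3x salt 0 of the 15 rose and 3 fell by limma, at an adjusted and at an unadjusted p alike, and 5 of the 14 rose and 4 fell, with medians of -0.18 and 0.02. Of all genes tested, 27.9% rose and 23.6% fell in 3x salt, with a median of 0.04. Of the 15, ORS1 was called as risen in 3x salt without no-salt array 1, ANAC032 and ANAC047 without 1x salt array 1 (adjusted p 0.0318 and 0.016), and ATAF1 and ANAC032 with the replicate number as a block (adjusted p 0.0477 and 0.0268). Of the 14, ANAC060, NTL8 and ANAC016 were not called as risen in 3x salt with normexp background correction (adjusted p 0.0936, 0.674 and 0.926). ANAC060 also entered the test through the 3x salt arrays, being mostly near background elsewhere. The difference between these sets was not tested.

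**Figure D2:**
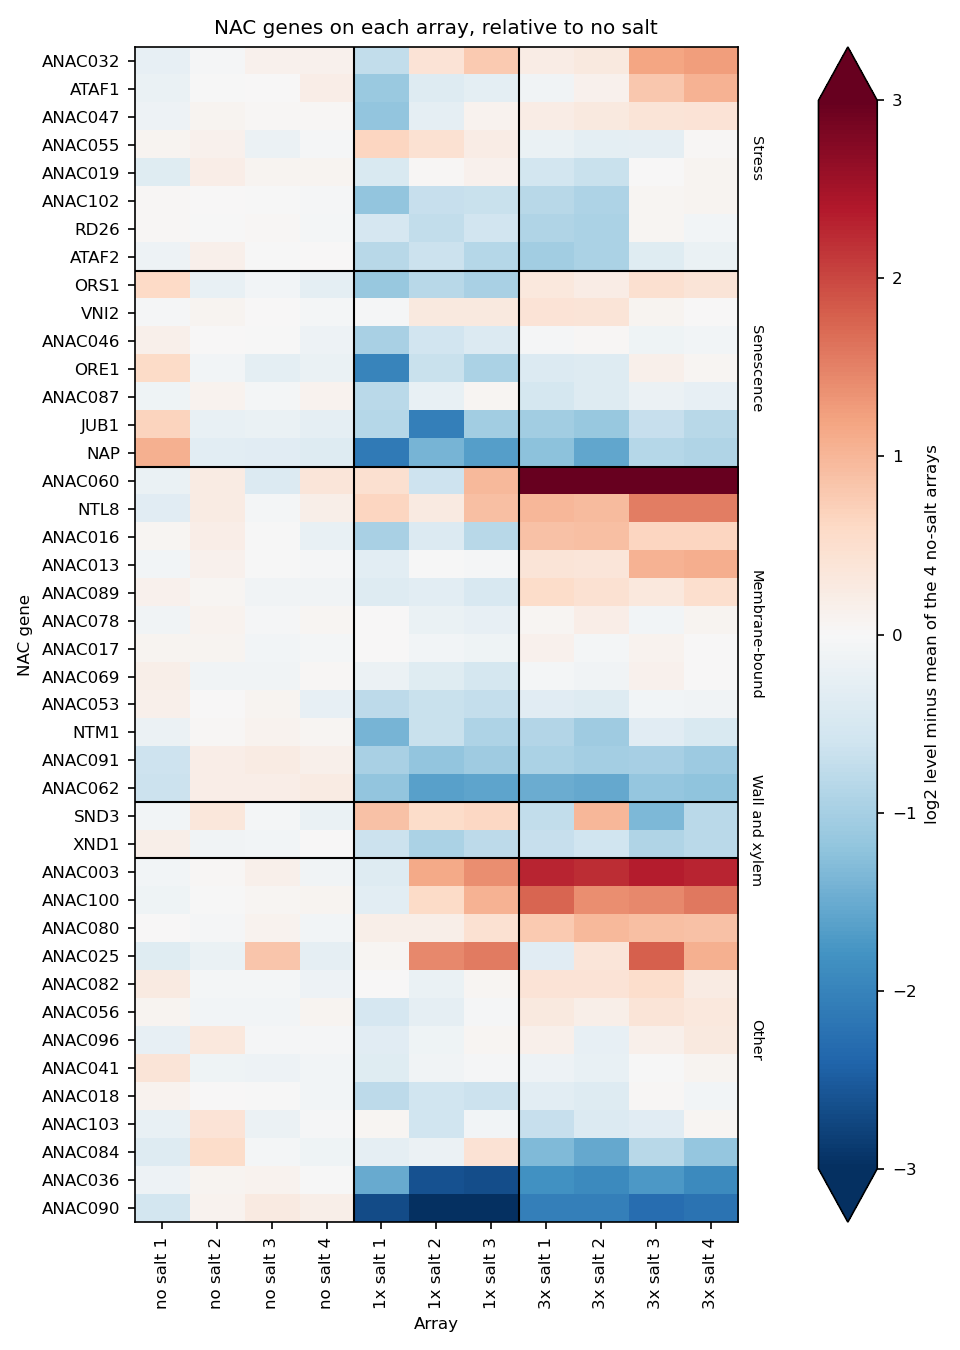
Log2 level of the 42 tested NAC genes (rows, by class and then by their difference in 3x salt) on each of the 11 arrays (columns), minus the gene's mean over the 4 no-salt arrays; colours saturate at 3 in either direction. Blue prevails in the 1x salt columns, ANAC060 is dark red on the 4 3x salt arrays, and ANAC036 and ANAC090 are blue in both salt regimes.

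Of the stress genes, ANAC055 rose in 1x salt, ATAF2 and ANAC102 fell in 1x salt, and ATAF2 also fell in 3x salt, while ANAC019, RD26 and ATAF1 passed no test against no salt. ANAC019 (AT1G52890), which activates drought and jasmonate responses, stood at 3.35, 3.91, 3.80 and 3.80 on the no-salt arrays, at 3.27, 3.74 and 3.84 in 1x salt, and at 3.17, 3.05, 3.73 and 3.79 in 3x salt. The groups overlapped, and the differences from no salt were -0.10 (SE 0.22, adjusted p 0.812) in 1x salt and -0.28 (SE 0.21, adjusted p 0.277) in 3x salt. RD26 (AT4G27410), an ABA-induced activator named for its response to desiccation, read 2.89, 2.83, 2.89 and 2.80 without salt, 2.34, 2.1 and 2.27 in 1x salt, and 1.95, 1.90, 2.92 and 2.77 in 3x salt. All 3 1x salt arrays lay below all no-salt arrays, yet the difference of -0.62 (SE 0.24) had an adjusted p of 0.103. With 3x salt arrays 1 and 2 low and arrays 3 and 4 within or near the no-salt range, the 3x difference was -0.47 (SE 0.22, adjusted p 0.0969). A fit of no salt and 1x salt alone, without the spread of the 3x arrays, gave RD26 the same difference at an adjusted p of 0.00492, and leaving out 3x salt array 3 gave -0.65 in 3x salt at 0.0206.

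ANAC055 (AT3G15500), the close relative of ANAC019, was the sole member to rise in 1x salt. It measured -0.33, -0.29, -0.58 and -0.44 without salt, 0.24, 0.06 and -0.18 in 1x salt, and -0.61, -0.70, -0.69 and -0.37 in 3x salt. The 1x salt arrays lay above all others, by 0.45 over no salt (SE 0.12, adjusted p 0.0324), while the 3x difference was -0.18 (adjusted p 0.202) and the level in 3x was lower than in 1x salt by -0.63 (adjusted p 0.00297). This rise was not called with 1x salt array 1 or 2 left out, nor with either of no-salt arrays 3 and 4 left out (adjusted p 0.0732 to 0.0881).

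The ATAF genes are the nearest relatives of ATAF1, which stands first. ATAF1 (AT1G01720), an activator of the ABA synthesis gene NCED3, stood at 1.11, 1.27, 1.30 and 1.50 in no salt, 0.19, 0.90 and 1.01 in 1x salt, and 1.19, 1.42, 2.09 and 2.34 in 3x salt. Its 1x salt arrays lay below all others, with a difference of -0.60 from no salt (SE 0.29, adjusted p 0.188), and 3x salt exceeded 1x salt by 1.06 (SE 0.29, adjusted p 0.0156). Leaving out 1x salt array 1 ended that call (0.0613). In 3x against no salt ATAF1 differed by 0.47 (adjusted p 0.169). ATAF2 (AT5G08790), a repressor of pathogenesis-related genes, was lower in both regimes, by -0.78 in 1x salt (SE 0.20, adjusted p 0.0232) and -0.64 in 3x salt (SE 0.18, adjusted p 0.0143). Its no-salt arrays spanned 3.42 to 3.74, above the 1x range of 2.73 to 2.93 and the 3x range of 2.54 to 3.40. In the authors' deposited table ATAF2 was called in neither regime (adjusted p 0.12 in 1x and 0.0668 in 3x salt). ANAC102 (AT5G63790), which is needed by seeds germinating at low oxygen, fell by -0.85 in 1x salt (adjusted p 0.0477) and differed by -0.40 in 3x salt (adjusted p 0.185). The remaining pair, ANAC032 and the hyponastic growth factor ANAC047, differed from no salt by 0.16 and -0.45 in 1x salt and by 0.74 and 0.33 in 3x salt, with no call on all 11 arrays, and ANAC047 was higher in 3x than in 1x salt (0.78, adjusted p 0.0265). ATAF2 kept its 1x call only as long as no-salt arrays 2, 3 and 4 and 1x salt array 3 were all present (0.0541 to 0.078 with any 1 of them left out). That of ANAC102 was lost without any 1 of the 7 no-salt and 1x salt arrays (0.0827 to 0.112), and the ANAC047 call without 3x salt array 3 or 4 (0.0553 and 0.0591).

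The 3x salt arrays held a split seen in 25 of the 42 tested members (59.5%), with the highest share among the stress genes. In these 25, both of arrays 3 and 4 lay above both of arrays 1 and 2, as in 28.6% of all genes. They were 7 of 8 stress, 5 of 7 senescence, 6 of 12 membrane-bound, 7 of 13 other and 0 of 2 wall genes. Both lay below in 6 of the 42 members, in 0 of the 8 stress genes and in 32.6% of all genes. The median gap between the pairs was 0.81 for the stress genes, 0.20 for the 42 members and -0.02 for all genes. In ANAC102 the pairs stood at 0.99 and 0.88 (arrays 1 and 2) and at 1.86 and 1.90 (arrays 3 and 4), against 1.78 to 1.85 without salt. The labels give the 4 arrays 1 treatment, and arrays 1 to 4 of 3x salt lay on 4 slides.

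**Figure D3:**
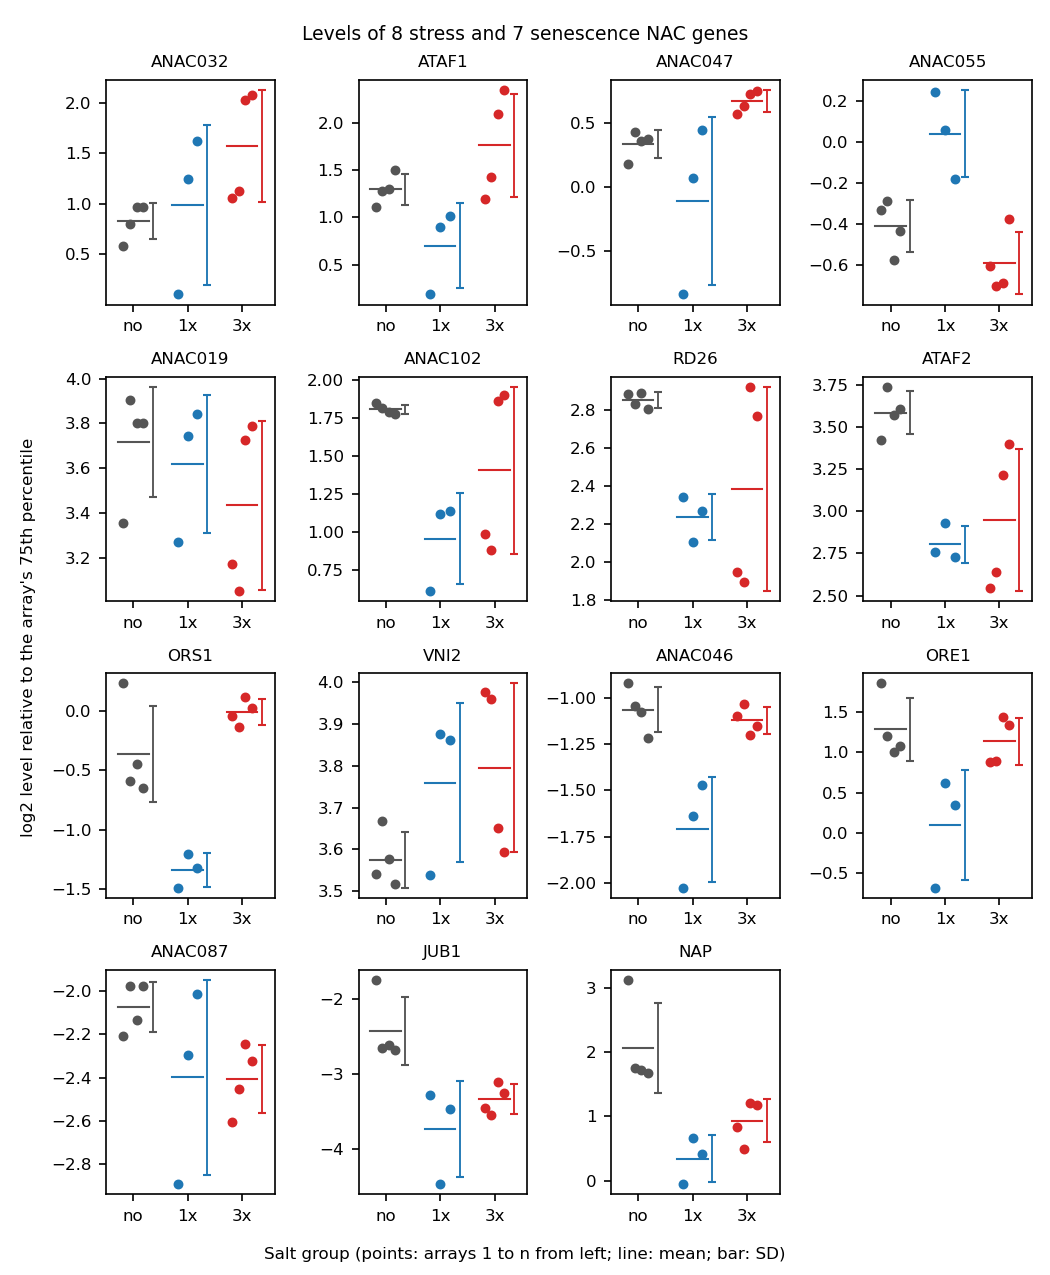
Levels of the 8 stress and 7 senescence NAC genes on each array, as log2 relative to the array's 75th percentile; points are arrays in replicate order, lines are group means and bars are SDs (n = 4, 3 and 4). For 7 of the 8 stress genes the last pair of 3x salt points lies above the first pair, and for NAP, ORE1, ORS1 and JUB1 no-salt array 1 is the highest no-salt point.

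Of the senescence genes, NAP, ORE1, ORS1, ANAC046 and JUB1 fell in 1x salt, and NAP and JUB1 also fell in 3x salt. With normexp background correction the 1x falls of ORE1, ANAC046 and JUB1 were not called (adjusted p 0.108, 0.132 and 0.0743). NAP (AT1G69490), which drives leaf senescence and activates SAG113 and AAO3, stood at 3.12, 1.75, 1.72 and 1.67 without salt, at -0.05, 0.67 and 0.42 in 1x salt, and at 0.84, 0.50, 1.22 and 1.17 in 3x salt. Every no-salt array lay above every salt array, and NAP fell by 1.72 in 1x salt (log2 difference -1.72, SE 0.35, adjusted p 0.0101) and by 1.13 in 3x salt (-1.13, SE 0.33, adjusted p 0.0155). No-salt array 1 raised the no-salt mean: without it the differences were -1.37 and -0.78, and both calls held (adjusted p 0.00528 and 0.0129).

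ORE1 (AT5G39610), the central activator of age-dependent cell death, was at 1.86, 1.21, 1.00 and 1.08 in no salt, at -0.68, 0.62 and 0.35 in 1x salt, and at 0.89, 0.89, 1.44 and 1.34 in 3x salt. The 1x salt arrays lay below all others, while no salt and 3x salt overlapped. Its differences were -1.19 in 1x salt (SE 0.32, adjusted p 0.0286) and -0.15 in 3x salt (SE 0.29, adjusted p 0.695), and 3x exceeded 1x salt by 1.04 (SE 0.32, adjusted p 0.025). The 1x call was lost without no-salt array 1, no-salt array 2 or 1x salt array 3 (0.0541 to 0.062), and the 3x against 1x call when 1x salt array 1, or array 3 or 4 of 3x salt, was left out (0.06 to 0.0799).

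ORS1 (AT3G29035), the nearest relative of ORE1 and likewise a promoter of senescence, read 0.23, -0.59, -0.45 and -0.65 without salt, -1.49, -1.21 and -1.33 in 1x salt, and -0.04, -0.13, 0.12 and 0.02 in 3x salt. It fell in 1x salt (-0.98, SE 0.19, adjusted p 0.00798), was higher in 3x than in 1x salt by 1.33 (SE 0.19, adjusted p 0.000641), and differed by 0.35 between 3x and no salt (adjusted p 0.117). The 1x salt arrays were below all others. All 3x arrays lay above no-salt arrays 2 to 4 and below array 1, and without array 1 the 3x difference was 0.55 (adjusted p 0.00167). ANAC046, which promotes chlorophyll breakdown, also stood lowest in 1x salt, with differences of -0.65 in 1x salt (adjusted p 0.00802) and -0.06 in 3x salt (adjusted p 0.707), and of 0.59 between 3x and 1x salt (adjusted p 0.00491). ANAC087, a factor of developmental cell death, differed by -0.33 in each regime with no call.

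The factors that delay senescence are JUB1 and VNI2. JUB1 (AT2G43000), a longevity factor, stood at -1.74, -2.65, -2.61 and -2.68 without salt, -3.28, -4.48 and -3.47 in 1x salt, and -3.45, -3.55, -3.10 and -3.25 in 3x salt. All salt arrays lay below all no-salt arrays, by -1.32 in 1x salt (SE 0.31, adjusted p 0.0171) and -0.92 in 3x salt (SE 0.28, adjusted p 0.0212), the latter not called without 3x salt array 2 (0.0534). VNI2 (AT5G13180), a repressor of vessel formation that also delays senescence, read 3.54, 3.67, 3.58 and 3.52, then 3.54, 3.88 and 3.86, then 3.98, 3.96, 3.65 and 3.60 in no, 1x and 3x salt. These ranges overlapped, and the differences of 0.18 (SE 0.12, adjusted p 0.343) and 0.22 (SE 0.11, adjusted p 0.129) were not called.

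Genes known as targets of senescence NACs went both ways. Of 13 tested of 14 listed, 5 rose and 3 fell in 1x salt (median 0.0047), where 9.24% and 7.7% of all genes did, and 7 rose and 2 fell in 3x salt (median 0.49), where 27.9% and 23.6% did. SAG113, a protein phosphatase gene activated by NAP, was 1.33 higher in 1x salt (adjusted p 0.00668) and 2.53 higher in 3x salt (adjusted p 3.08e-05), while NAP itself was lower in both. AAO3, the last enzyme of ABA synthesis and another NAP target, was 0.42 higher in 1x salt (adjusted p 0.025) and 0.74 higher in 3x salt (adjusted p 0.000236). The sugar transporter gene SAG29 was above background on 1 of 4 no-salt arrays, all 3 1x salt arrays and all 4 3x salt arrays, so its called differences of 2.08 in 1x salt and 5.34 in 3x salt are against no-salt signals mostly near background. The ribonuclease gene RNS3 rose by 0.88 in 1x salt (adjusted p 0.0043) and fell by 0.41 in 3x salt (adjusted p 0.0316). The list holds genes with other regulators too.

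Of 12 listed targets of stress NACs, 0 rose and 2 fell in 1x salt by limma (1 and 3 at an unadjusted p below 0.05), and 3 rose and 3 fell in 3x salt, shares near the 27.9% and 23.6% of all genes. NCED3, the ABA synthesis gene that ATAF1 activates, was lower in both regimes, by -0.97 (adjusted p 0.0249) and -0.65 (adjusted p 0.0361). ABCG40, an ABA importer of guard cells, was lower by -1.87 (adjusted p 0.0489) and -1.53 (adjusted p 0.0333). In 3x salt RD29B and RD29A, classic ABA and drought reporters, rose by 2.56 (adjusted p 0.000341) and 0.81 (adjusted p 0.000221), and COR15B, a chloroplast protein gene of cold acclimation, fell by 1.04 (adjusted p 1.85e-05). Of the 10 listed regulators that act on NAC genes, 0 rose and 0 fell in 1x salt by limma, with 0 and 4 at an unadjusted p below 0.05. In 3x salt 2 of the 10 rose and 3 fell, again near the shares of all genes. MYC2, which activates ANAC019, ANAC055 and RD26, differed by -0.99 in 1x salt (adjusted p 0.066) and fell by 1.59 in 3x salt (adjusted p 0.00216). The ABA transcription factor gene ABF3 fell by 0.88 in 3x salt (adjusted p 0.000226), whereas ABI5 and its relative EEL rose by 0.91 and 1.34 (adjusted p 0.000343 and 0.000698).

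Among the genes classed as membrane-bound, ANAC060, NTL8, ANAC016, ANAC013 and ANAC089 rose in 3x salt, and ANAC062, ANAC091 and NTM1 fell. The class follows known roles, and whether each protein, that of ANAC060 included, carries its anchor in Columbia-0 was not examined. ANAC060 (AT3G44290), which dampens ABA signalling in the sugar response of seedlings, had the largest positive difference of the 42 members in 3x salt. It stood at -6.81, -6.37, -7.01 and -6.25 without salt, at -6.13, -7.23 and -5.63 in 1x salt, and at -2.71, -2.85, -2.73 and -2.50 in 3x salt. The 3x arrays lay far above all others, a difference of 3.91 from no salt (SE 0.30) and of 3.63 from 1x salt (SE 0.33), while 1x and no salt overlapped (0.28). The probe was well above background on all 4 3x salt arrays but on only 1 of 4 no-salt and 1 of 3 1x salt arrays. It therefore entered the test through the 3x arrays, and its differences describe a probe that is dim elsewhere, with no fold. With normexp background correction the differences were 1.36 from no salt (adjusted p 0.0936) and 1.82 from 1x salt (adjusted p 0.0676), and neither was called.

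NTL8 (AT2G27300), known for salt-dependent delay of flowering and germination, read -4.97, -4.38, -4.69 and -4.45, then -3.98, -4.35 and -3.72, then -3.61, -3.67, -3.09 and -3.08 in no, 1x and 3x salt. Every 3x array lay above every other array, by 1.26 over no salt (SE 0.20, adjusted p 0.000564) and 0.66 over 1x salt (SE 0.21, adjusted p 0.0341), and the 1x difference of 0.60 was not called (adjusted p 0.0813). Leaving out array 1 or 2 of 1x salt, or array 3 or 4 of 3x salt, ended its 3x against 1x call (0.0703 to 0.124). ANAC069 (NTM2), which links salt to auxin in germinating seeds, differed by -0.35 in 1x salt (adjusted p 0.0452) and had an adjusted p of 0.998 in 3x salt. The 1x call of ANAC069 rests near the threshold, being lost without any 1 of 9 of the 11 arrays (0.054 to 0.162), all but 1x salt array 1 and 3x salt array 3. Its 3x against 1x call (0.35, adjusted p 0.0238) ended when array 2 or 3 of 1x salt, or array 3 or 4 of 3x salt, was left out (0.0502 to 0.0838). The other probes of ANAC069 gave 0.08 and 0.33 for 3x against 1x salt, and -0.33 and -0.09 for 3x against no salt. With the mean of all its probes the 3x against 1x difference was 0.26 and not called (adjusted p 0.123).

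Of the factors tied to mitochondrial and oxidative stress, ANAC016 and ANAC013 rose in 3x salt, and ANAC016 and ANAC053 fell in 1x salt. ANAC016 (AT1G34180), a promoter of senescence and repressor of the ABA factor gene ABF2, stood at -4.43, -4.29, -4.50 and -4.72 without salt, -5.46, -4.88 and -5.31 in 1x salt, and -3.60, -3.57, -3.84 and -3.84 in 3x salt. The 3 groups did not overlap: ANAC016 was lower in 1x salt (-0.74, SE 0.15, adjusted p 0.00986) and higher in 3x salt (0.77, SE 0.14, adjusted p 0.00128), and 3x exceeded 1x salt by 1.51 (SE 0.15, adjusted p 0.000136). This dim probe lost all 3 calls under normexp, with -0.67 in 1x salt, -0.062 in 3x salt and 0.61 between 3x and 1x salt. In the authors' deposited table the 1x fall of ANAC016 was not called (-0.69, adjusted p 0.102), while its other calls held. ANAC013 (AT1G32870), which relays mitochondrial dysfunction to the nucleus, rose in 3x salt by 0.73 (SE 0.17, adjusted p 0.00612), from 0.54 to 0.75 on the no-salt arrays to 1.01, 1.00, 1.68 and 1.71. ANAC017, its better-known partner in that pathway and the genomic neighbour of ANAC016, differed by -0.07 and 0.05 (adjusted p 0.588 and 0.625), with SEs of 0.08 and 0.07. ANAC053, which drives reactive oxygen production under drought, fell by 0.73 in 1x salt (adjusted p 0.003) and differed by -0.23 in 3x salt (adjusted p 0.0968), and ANAC078, its partner in proteasome stress, differed by -0.15 and 0.07 with no call.

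Of 6 listed genes of mitochondrial stress, 1 fell and 0 rose in 1x salt by limma, with 4 lower and 0 higher at an unadjusted p below 0.05. In 3x salt 2 rose and 1 fell, where 27.9% of all genes rose and 23.6% fell. The outer mitochondrial membrane gene OM66 differed by -2.31 in 1x salt (adjusted p 0.00123) and by -2.21 in 3x salt (adjusted p 0.000159), falling in both. UGT74E2, an auxin glucosyltransferase gene, rose by 2.77 in 3x salt (adjusted p 0.000553), and UPOX by 0.55 (adjusted p 0.0378). In 3x against 1x salt 4 of the 6 were higher and 0 lower, also at an unadjusted p in limma, where 19.8% and 19% of all genes were called higher and lower.

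ANAC062 and ANAC091, with roles in defence, fell in both regimes. ANAC062 (AT3G49530), which activates pathogenesis-related and protein folding genes, stood at 1.72, 2.56, 2.57 and 2.61 without salt, 1.17, 0.74 and 0.79 in 1x salt, and 0.89, 0.83, 1.20 and 1.16 in 3x salt. Every salt array lay below every no-salt array, by -1.46 in 1x salt (SE 0.22, adjusted p 0.00236) and -1.35 in 3x salt (SE 0.20, adjusted p 0.000441). ANAC091 (AT5G24590), known for its binding to a viral coat protein, read 0.65, 1.47, 1.53 and 1.43, then 0.31, 0.08 and 0.20, then 0.32, 0.26, 0.27 and 0.18 in no, 1x and 3x salt. It fell by 1.08 in 1x salt (SE 0.19, adjusted p 0.00486) and by 1.01 in 3x salt (SE 0.17, adjusted p 0.000925), again with no overlap between salt and no salt. For both genes no-salt array 1 was the lowest no-salt array, nearest to the salt arrays. NTM1, a factor of cytokinin signalling and cell division and the genomic neighbour of ANAC069, fell by 0.99 in 1x salt (adjusted p 0.0105) and 0.68 in 3x salt (adjusted p 0.0133).

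ANAC089 (AT5G22290), which promotes cell death under endoplasmic reticulum stress, was lower in 1x salt and higher in 3x salt. It stood at 1.85, 1.77, 1.62 and 1.62 without salt, 1.33, 1.39 and 1.24 in 1x salt, and 2.26, 2.16, 2.03 and 2.22 in 3x salt. With no overlap between any groups, it was lower in 1x salt (-0.39, SE 0.09, adjusted p 0.0143) and higher in 3x salt (0.45, SE 0.08, adjusted p 0.00115), and 3x exceeded 1x salt by 0.84 (SE 0.09, adjusted p 0.000155). Its 1x call was lost without 1x salt array 3 (0.0582), under normexp (-0.31, adjusted p 0.357), under the slide block (0.0603) and in the authors' deposited table (0.187). Of 7 listed endoplasmic reticulum stress genes, 0 rose and 2 fell in 1x salt by limma (0 and 3 at an unadjusted p below 0.05), where 9.24% and 7.7% of all genes did. In 3x salt 1 rose and 2 fell, where 27.9% and 23.6% of all genes did. BZIP60, the transcription factor of that response, fell by 0.80 in 1x salt (adjusted p 0.00729) and 0.53 in 3x salt (adjusted p 0.00969), and the chaperone gene BIP3 by 1.14 and 1.20 (adjusted p 0.0152 and 0.00216). ANAC103, the NAC gene downstream of BZIP60, differed by -0.21 and -0.35 with no call (adjusted p 0.561 and 0.18).

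**Figure D4:**
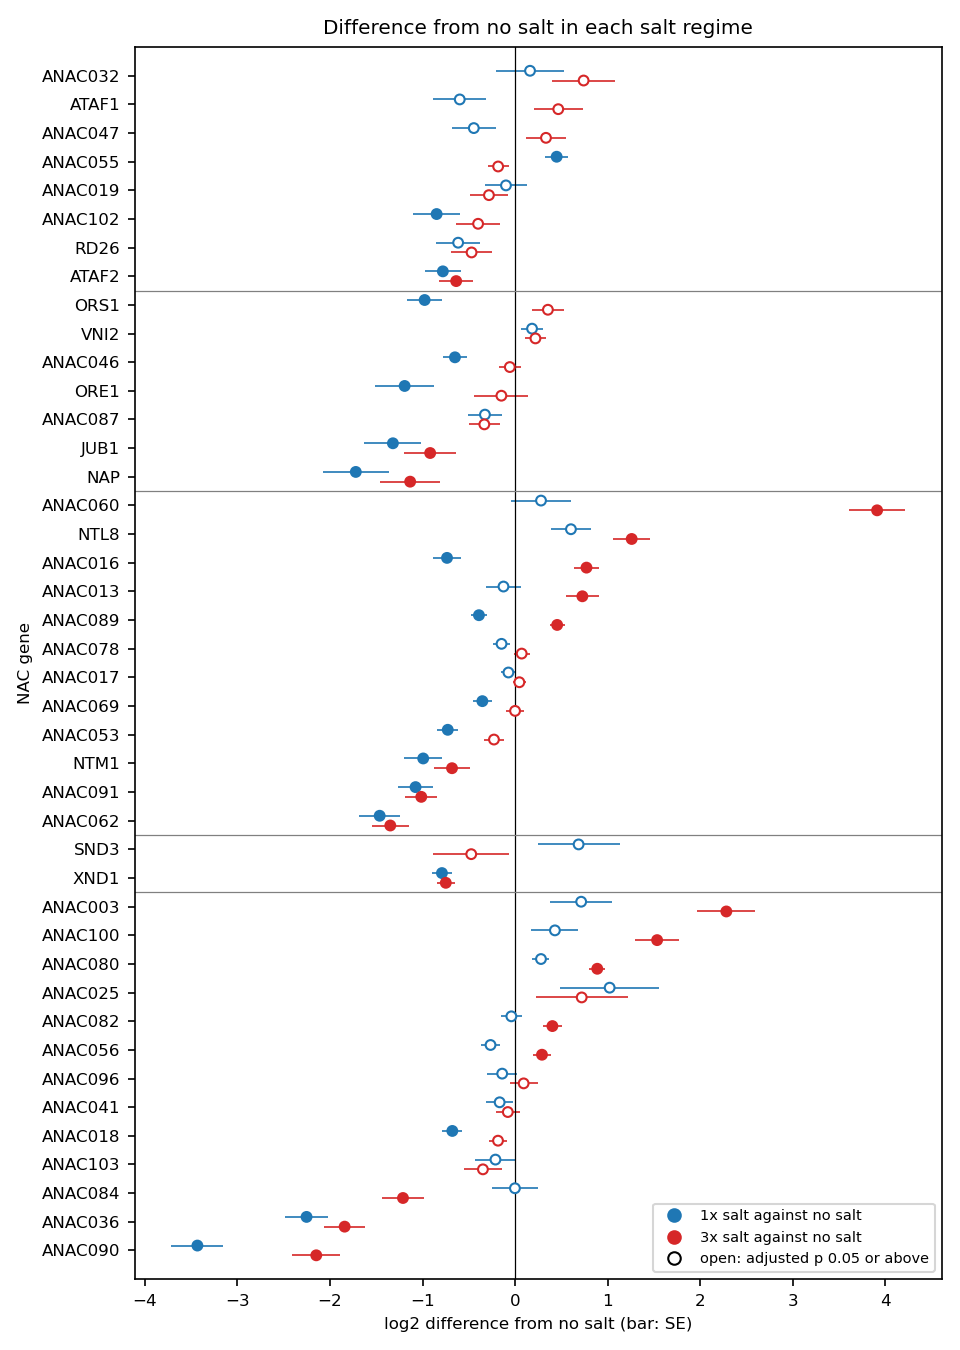
Log2 difference from no salt of the 42 tested NAC genes in 1x salt (blue) and 3x salt (red), with SE bars; filled points passed an adjusted p below 0.05 in limma, and lines part the stress, senescence, membrane-bound, wall and other classes from top to bottom. Blue points lie mostly left of 0, and the farthest points are ANAC060 in 3x salt (3.91) and ANAC090 in 1x salt (-3.43).

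Of the wall genes, XND1, a negative regulator of xylem formation, fell in both regimes. XND1 (AT5G64530) stood at -0.48, -0.76, -0.75 and -0.65 without salt, -1.31, -1.61 and -1.44 in 1x salt, and -1.34, -1.27, -1.55 and -1.48 in 3x salt. All salt arrays lay below all no-salt arrays, with differences of -0.79 in 1x salt (SE 0.11, adjusted p 0.00147) and -0.75 in 3x salt (SE 0.10, adjusted p 0.000213). SND3, which acts below SND1, differed by 0.69 in 1x salt and -0.47 in 3x salt with no call (adjusted p 0.328 and 0.361), and its 3x arrays were scattered from -6.50 to -4.17, array 2 being the highest. Without 3x salt array 2 its difference in 3x salt was -0.96 (adjusted p 0.00249) and the 1x difference was called (adjusted p 0.0325). The slide block, which likewise gives no weight to 3x salt array 2, called the 3x fall too (-0.73, adjusted p 0.0441). The authors' deposited table gave -0.54 (adjusted p 0.0123).

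While NST1 and SND1 were not well above background, genes of secondary wall synthesis were measured. Of 14 tested of 15 listed secondary wall genes, 10 rose and 0 fell in 1x salt by limma (13 and 0 at an unadjusted p below 0.05), with a median of 1.36, and 2 rose and 0 fell in 3x salt (3 and 0 at an unadjusted p). For all genes the shares were 9.24% risen and 7.7% fallen in 1x salt, and 27.9% and 23.6% in 3x salt. CESA7, a cellulose synthase of secondary walls, rose by 1.79 (adjusted p 0.00473), the switch gene MYB46 by 1.72 (adjusted p 0.00531) and COBL4 by 1.61 (adjusted p 0.00833) in 1x salt. The 7 that rose in 1x salt among the 22 tested of 34 listed NAC genes outside the 47 included the vessel regulator VND6 (1.25, adjusted p 0.00198), the phloem gene ANAC045 (0.98, adjusted p 0.00674) and ANAC057 (0.86, adjusted p 0.00685). In 3x salt 3 of these 22 rose and 8 fell, with ANAC001 0.91 higher (adjusted p 2e-04) and ANAC086 and ANAC045, which clear the nucleus of sieve elements, -1.44 and -1.02 lower (adjusted p 0.000752 and 0.000771).

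Summed vascular, guard cell, and pavement cell and trichome markers were higher in 1x salt than in no salt, while the mesophyll sums of these groups overlapped. The summed linear level of the 10 vascular markers was 159 to 202 on the 1x salt arrays against 110 to 134 in no salt and 124 to 133 in 3x salt, in units of the array's 75th percentile. Such a sum is weighted toward the brightest probes and need not follow the number of genes called. Of the 10, 7 rose in 1x salt, and 2 rose and 3 fell in 3x salt. For all genes the shares were 9.24% risen and 7.7% fallen in 1x salt, and 27.9% and 23.6% in 3x salt. The 11 guard cell markers summed to 56.2 to 72.4 in 1x salt, 40.4 to 51.4 in no salt and 32.3 to 42.1 in 3x salt, with 2 risen in 1x salt and 1 risen (GORK, an outward potassium channel gene) and 4 fallen in 3x salt. The 5 mesophyll markers summed to 378 to 582, 355 to 475 and 198 to 276 in 1x, no and 3x salt, and all 5 fell in 3x salt. By limma 0 of the 5 rose and 0 fell in 1x salt (1 and 0 at an unadjusted p below 0.05). In the same order, 7 pavement cell and trichome markers, 5 of them tested, summed to 13.5 to 14.2, 9.39 to 10.4 and 12.1 to 14.8, with 2 risen in 1x salt and 1 risen and 3 fallen in 3x salt, and the trichome gene GL1 was not above background on any array. Against the direction of their sum, the 5 tested pavement cell and trichome markers had a median difference of -0.49 in 3x salt. The part of these shifts in the NAC differences was not tested.

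The largest fall of all belonged to ANAC090 (AT5G22380), which restrains salicylate-dependent senescence of young leaves. It stood at -1.24, -0.59, -0.42 and -0.52 without salt, -3.37, -4.50 and -4.50 in 1x salt, and -2.74, -2.75, -2.98 and -2.90 in 3x salt. The 3 groups did not overlap, and ANAC090 was lower by -3.43 in 1x salt (10.8-fold, SE 0.28, adjusted p 0.00016) and -2.15 in 3x salt (4.43-fold, SE 0.26, adjusted p 0.000135). The 3x arrays exceeded the 1x arrays by 1.28 (SE 0.28, adjusted p 0.00566). ANAC036 (AT2G17040), which dwarfs leaves when overproduced, read 2.37, 2.61, 2.64 and 2.51, then 1.03, -0.07 and -0.12, then 0.71, 0.62, 0.80 and 0.63 in no, 1x and 3x salt. All salt arrays lay below all no-salt arrays, and it fell by 2.25 (4.77-fold, SE 0.24, adjusted p 0.000464) and by 1.84 (3.58-fold, SE 0.22, adjusted p 0.000121). On 1x salt array 1 ANAC036 stood above the 3x arrays and on 1x arrays 2 and 3 below them, giving 0.41 for 3x against 1x salt (adjusted p 0.194), and without that array 0.79 (adjusted p 0.000518).

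Rises outside the named classes came with 3x salt. ANAC003 (AT1G02220) stood at -2.97, -2.86, -2.75 and -3.01 without salt, -3.29, -1.75 and -1.51 in 1x salt, and -0.61, -0.69, -0.55 and -0.60 in 3x salt. The 3x arrays lay above all others, by 2.28 over no salt (SE 0.31, adjusted p 0.000269) and 1.57 over 1x salt (SE 0.34, adjusted p 0.00525). On 1x salt array 1 it was below every no-salt array and on arrays 2 and 3 above them, so the 1x difference was 0.71 (adjusted p 0.182) with array 1 and 1.27 (adjusted p 6.92e-05) without it.

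ANAC100 (AT5G61430) and ANAC080 (AT5G07680) are, like ORE1, targets of the microRNA miR164. ANAC100 read -4.75, -4.64, -4.57 and -4.54, then -4.95, -4.06 and -3.58, then -2.89, -3.23, -3.19 and -3.05 in no, 1x and 3x salt. Its 3x arrays lay above all others, by 1.53 over no salt (SE 0.24, adjusted p 0.000496) and 1.1 over 1x salt (SE 0.25, adjusted p 0.00726), while the 1x difference of 0.43 (adjusted p 0.285) became 0.81 (adjusted p 0.00465) without 1x salt array 1. ANAC080 stood at -1.75, -1.80, -1.64 and -1.84 without salt, -1.58, -1.57 and -1.29 in 1x salt, and -0.98, -0.78, -0.85 and -0.87 in 3x salt. It rose by 0.89 in 3x salt (SE 0.09, adjusted p 3.94e-05), exceeded 1x salt by 0.61 (SE 0.09, adjusted p 0.000864), and the 1x difference of 0.28 was not called (adjusted p 0.064).

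Smaller rises in 3x salt were those of ANAC082, a mediator of ribosomal stress (0.40, adjusted p 0.00973), and the seed coat factor ANAC056 (0.29, adjusted p 0.0325). Neither was called in the authors' deposited table (0.19, adjusted p 0.439, and 0.25, adjusted p 0.247). For ANAC056 the call ended with either of no-salt arrays 2 and 3 left out, or with array 1, 3 or 4 of 3x salt left out (0.0626 to 0.0835). ANAC018, the partner of ANAC056 in the seed coat, fell by 0.68 in 1x salt (adjusted p 0.00335) and differed by -0.18 in 3x salt (adjusted p 0.153). ANAC084 (AT5G14000) stood at -3.99, -3.06, -3.67 and -3.74 without salt, -3.89, -3.78 and -3.18 in 1x salt, and -4.94, -5.15, -4.45 and -4.77 in 3x salt. It was lower on all 3x arrays than on any other, by -1.21 from no salt (SE 0.23, adjusted p 0.00176) and -1.21 from 1x salt (SE 0.25, adjusted p 0.00424). ANAC025, ANAC041 and ANAC096, the last a partner of the ABA factors ABF2 and ABF4, had no call, with differences from -0.17 to 1.02.

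**Figure D5:**
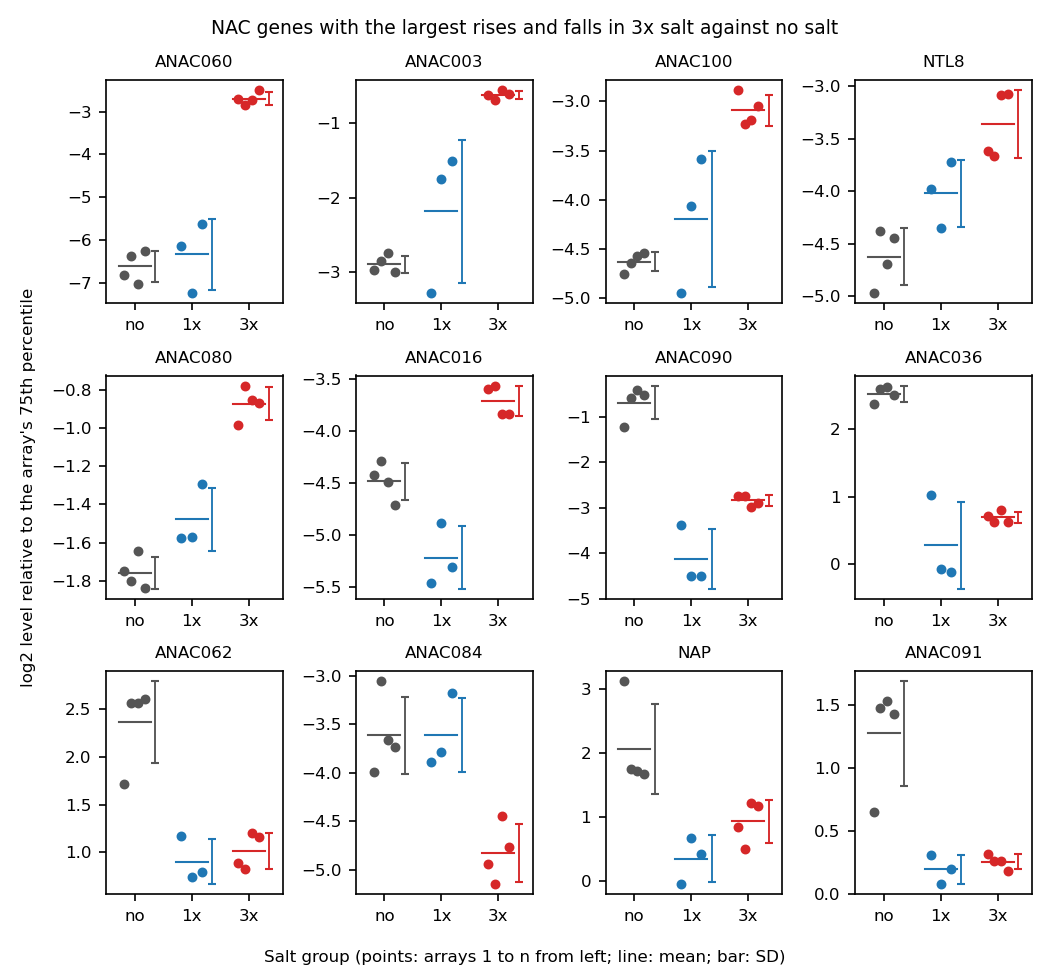
Levels, as log2 relative to the array's 75th percentile, of the 6 NAC genes with the largest rises and the 6 with the largest falls in 3x salt against no salt; points are arrays in replicate order, lines are group means and bars are SDs (n = 4, 3 and 4). The 3x salt points lie apart from all no-salt points in each of the 12 genes, and NAP, ANAC062 and ANAC091 show no-salt array 1 away from arrays 2 to 4.

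Members that sit side by side in the genome, with 0 annotated genes between them, were read by separate probes, whose cross-hybridisation was not tested. ANAC055 and ANAC056 on chromosome 3 differed from no salt by 0.45 and -0.27 in 1x salt and by -0.18 and 0.29 in 3x salt. On chromosome 1, ANAC018 and ANAC019 gave -0.68 and -0.10 in 1x salt, and ANAC016 and ANAC017 gave 0.77 and 0.05 in 3x salt. ANAC046 and ANAC047 on chromosome 3 gave -0.65 and -0.45 in 1x salt, and NTM1 and ANAC069 on chromosome 4 gave -0.99 and -0.35.

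How many members passed depends on the slides and on the background correction. The slide as a block leaves 3 residual degrees of freedom and no weight for 3x salt arrays 2 and 3, each alone on a slide. With it, 6 members fell and 0 rose in 1x salt in limma (20 and 5 at an unadjusted p below 0.05), where 1.9% of all genes fell and 2.55% rose. In 3x salt 8 rose and 7 fell, near the 18% and 16.1% of all genes. In 3x against 1x salt 4 were higher and 1 lower, where 5.06% and 6.87% of all genes were. The 6 that fell in 1x salt under the slide block were ANAC016, ANAC018, ANAC036, ANAC090, NTM1 and XND1, and the 4 that were higher in 3x than in 1x salt were ANAC016, ANAC060, ANAC080 and ANAC089. The 1 that was lower in 3x than in 1x salt was SND3, which was not called without the block. In 3x against no salt the slide block kept 14 of 20 calls and lost those of NAP, JUB1, ATAF2, ANAC091, ANAC056 and ANAC082. Normexp left 9 falls and 0 rises in 1x salt (18 and 1 at an unadjusted p), where 2.54% of all genes fell and 2.09% rose. It left 5 rises and 9 falls in 3x salt, where 12.7% and 15.5% of all genes rose and fell. It left 10 members higher and 1 lower in 3x than in 1x salt, where 6.55% and 8.51% of all genes were. Among its lost calls in 3x against no salt, where 14 of 20 held, were those of ANAC100 (0.52, adjusted p 0.347), NTL8 (0.26, adjusted p 0.674) and ANAC084 (-1.11, adjusted p 0.0505). Within slides, the median difference of the 42 members between 1x and no salt was -0.53, -0.41 and -0.13 on slides 1, 2 and 4. Between 3x and no salt it was -0.25 and 0.08 on slides 1 and 6, and between 3x and 1x salt it was 0.42 on slide 1. Without no-salt array 1 and 1x salt array 1, which stood apart, 15 members fell and 2 rose in 1x salt, 12 rose and 11 fell in 3x salt, and 19 were higher and 2 lower in 3x than in 1x salt. Of all 23442 genes, 2280 then fell and 2750 rose in 1x salt, and 6730 rose and 5646 fell in 3x salt. In 3x against 1x salt 3935 of all genes were higher and 3987 lower.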

How the data were processed

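Per the file headers, spot intensities came from Agilent Feature Extraction (version 11.5.1.1), which gave a background-subtracted and detrended processed signal with raw medians of spot and background. The deposited table of log2 values per locus was made by the authors with a normalisation not given in the sources used here. Its scale was judged by setting its columns against the scanner values: over 19176 shared loci each column correlated best with its own array (0.79 to 0.93), and its column medians were 8.29 to 8.34. Its centring is unknown, and it served as an alternative.

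Each level is log2 of the processed signal minus the 75th percentile of the non-control spots on that array, with repeat spots averaged and outlier-flagged spots dropped. Of 43603 probes, 34348 matched 25410 loci through RefSeq names of assembly TAIR10.1. The brightest probe stood for a locus, and 23442 of 34290 genes that were well above background on at least 3 of 11 arrays were tested (204 lacked a value on an array). One linear model over all 11 arrays (limma 3.58.1, lmFit and eBayes, R 4.3.3, package data.table at version 1.17.8, 8 residual degrees of freedom) gave every p, adjusted by Benjamini-Hochberg over all genes within a comparison, threshold 0.05. The fit was checked on simulated data. The number of arrays limits the precision.

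The members, their classes and the lists of related genes and markers were chosen with earlier results of these data known. Members with values on each array are ANAC019, ANAC055, RD26, ATAF1, NAP, ORE1, JUB1 and VNI2 and, per comparison, up to 6 largest rises and 6 largest falls past the threshold. Of each related list up to 3 genes with the smallest adjusted p are named. SND3, ANAC102, ANAC103, MYC2 and the other genes named outside that rule were chosen after their values were seen. Of the 6 slides, slide 1 carried replicate 1 of all groups, slides 2 and 4 carried no-salt and 1x salt replicates 2 and 3, slide 6 carried no-salt and 3x salt replicate 4, and 3x salt replicates 2 and 3 were alone on slides 3 and 5. Alternatives covered background correction (normexp with offset 50 on median signals), centring, filter, probes, the authors' table, slides, replicate numbers and single arrays. A planned pairing of members by protein identity was not run. Plots used python 3.11.15 (matplotlib 3.10.9; pandas 2.3.3).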

Additional observations from a re-analysis of the deposited data

Results flagged for a closer look

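Among the 84 groups of 4 arrays examined, 6 held an array whose gap to its nearest neighbour was a large part of the group's range (Dixon's critical value for 4), and chance alone gives about 4.2. No-salt array 1 was that array for 5 of the 6. NAP was at 3.12 on it where arrays 2 to 4 had 1.67 to 1.75, and JUB1 at -1.74 against -2.68 to -2.61. ANAC041, a NAC gene with no call, was at 1.85 against 1.32 to 1.39. In the other direction, ANAC062 was at 1.72 against 2.56 to 2.61, and ANAC091 at 0.65 against 1.43 to 1.53. ANAC025 was at -6.81 on no-salt array 3 against -8.01 to -7.85, with its probe above background on only 3 of the 11 arrays.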

How the results depend on the processing

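Counts are members that rose or fell, by limma, out of 42 tested, or 46 with no filter on dim genes and 47 in the authors' deposited table. In 1x salt the 1 rise was not called, giving 0, under normexp, median centring, no filter on dim genes, the slide block and averaging of close arrays (unadjusted p below 0.05: 1, 3, 3, 5 and 2 rises). Without single arrays it ranged from 0 (no-salt 3, no-salt 4 or 1x salt 2 left out; 4, 3 and 4 rises at an unadjusted p) to 3 (1x salt 1 left out; 2 without 3x salt 2). The 18 falls became 9 under normexp, 6 under the slide block and 0 with close arrays averaged (17 at an unadjusted p; 3 residual degrees of freedom, where 2 of all genes rose and 0 fell). They were 12 in the authors' deposited table and 14 to 18 without single arrays. The falls not called in that table were those of ANAC016, ANAC069, ATAF2, ANAC089, ANAC102 and ORE1 (adjusted p 0.052 to 0.187). In 3x salt the rises became 5 under normexp and 3 with close arrays averaged (9 to 12 without single arrays), and the falls 1 with close arrays averaged (10 to 12). For 3x against 1x salt the 19 higher became 10 under normexp, 4 under the slide block and 3 with close arrays averaged (15 to 20), and the 2 lower became 1, 1 and 0 (3 at an unadjusted p with close arrays averaged). The 1 lower under the slide block was SND3, while ANAC055 and ANAC084 were not called there (adjusted p 0.0599 and 0.105). Median log2 differences that moved were, in 1x salt, membrane-bound -0.47 (normexp; -0.42 to -0.31 without single arrays), senescence -1.21 (close arrays averaged; -1.07 to -0.61) and stress -0.68 to -0.21 without single arrays. In 3x salt they were other -0.088 (normexp) and 0.30 (slide block) and membrane-bound 0.13 (quantile). In 3x against 1x salt the membrane-bound median was 0.27 (normexp), 0.52 (median centring), 0.35 (above background on all arrays), 0.51 (authors' table), 0.51 (slide block) and 0.38 to 0.50 without single arrays. ANAC016 in 3x salt turned to -0.062 under normexp (adjusted p 0.926). Why these values moved was not tested, beyond the fewer degrees of freedom stated. Normexp moved the median of all genes to -0.09, -0.16 and -0.06 in the 3 comparisons, and median centring and quantile normalisation moved the calls of all genes in 3x against 1x salt from 4650 higher and 4451 lower to 6292 and 3479 and to 5890 and 3642. Under all 3 scalings the members were mostly lower in 1x salt (32 to 36 of 42) and higher in 3x than in 1x salt (34 to 38 of 42). Same-numbered samples had deviations correlated at 0.094 to 0.15 between no salt and 1x salt, 0.0091 to 0.23 between no salt and 3x salt and -0.12 to 0.30 between 1x and 3x salt. In no comparison were all pairs over 0.1, so the numbers were not taken as pairs, although numbers shared slides in part and each no-salt and 1x sample of numbers 1 to 3 correlated best with its own number in the other group. With the replicate block 1 rose and 14 fell in 1x salt, where 7.48% and 6.48% of all genes did. In 3x salt 12 rose and 10 fell, where 29% and 24.9% of all genes did. In 3x against 1x salt 17 were higher and 2 lower, where 19.7% and 19% of all genes were. Signals near background limit ANAC060, ANAC025, SND3 and SAG29.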
